A study of Mus musculus with 17 samples.

Results

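Gene expression in the dorsal hippocampus of female ACSS2 knockout (KO) and female wild type (WT) mice was compared after both genotypes had been injected with tau. The female KO Tau group held 3 libraries (numbered 314, 324 and 325) and the female WT Tau group 2 (331 and 341), 5 of the 17 bulk RNA sequencing libraries of the study, chosen by their labels of sex, genotype and treatment alone. At 6 months of age all of these mice were injected in the right dorsal hippocampus with pathological tau prepared from the brains of people with Alzheimer's disease. The RNA came from slices of dorsal hippocampus, and the paper places its molecular work 6 months after the injection. Female mice given saline were not analysed here, so a difference between the genotypes cannot be split into one that tau brought about and one that was there without it. The KO was constitutive, so every cell type of the animal carried it throughout life. KO and WT mice came from separate homozygous crosses of F1 mice, and all were perfused with fixative before dissection. The male KO Tau and male WT Tau libraries, 3 each, are used below to share an estimate of the spread and to show what the same genes did in other animals.

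ACSS2, acetyl-CoA synthetase 2, joins free acetate to coenzyme A and so makes acetyl-CoA outside the mitochondrion. In the nucleus of neurons this acetyl-CoA is a substrate of the histone acetyltransferases, and acetylated histones accompany the transcription of genes that neuronal activity switches on. In the cytosol acetyl-CoA is the building block of fatty acids and of cholesterol, and Acss2 is itself driven by the SREBP factors that switch on the sterol pathway. Injected tau from human brain seeds the aggregation of the mouse's own tau, which then spreads along connected regions. The comparison asks which transcripts differed between genotypes once that had happened in females, the sex that the study's own bulk analysis left out.

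Acss2 was the gene that separated the genotypes. It stood at 8.81, 6.15 and 4.98 CPM (the reads of a gene as a share of all reads counted in the library, scaled to a common total) in KO libraries 314, 324 and 325, and at 54.3 and 46.4 CPM in WT libraries 331 and 341. The groups lay far apart, with 80 to 125 reads per KO library against 938 and 1043 per WT library. The means were 6.65 ± 1.97 CPM (SD, n = 3) in KO and 50.4 ± 5.56 CPM (SD, n = 2) in WT. Acss2 (ENSMUSG00000027605.18, a protein-coding gene on the plus strand of chromosome 2, 155517948 to 155585724 in GRCm38) fell by 2.86 on the log2 scale in KO (SE 0.26, 7.28-fold), with an adjusted p of 0.00347 by edgeR's quasi-likelihood test. The call depended on the libraries: without KO library 324 or WT library 331 the adjusted p by edgeR was 0.0688 and 0.0578, with log2 fold changes of -2.81 and -2.78. In the males Acss2 ran from 3.07 to 5.74 CPM in KO and from 44.0 to 52.2 CPM in WT, a log2 fold change of -3.48 (SE 0.25), and the difference between the sexes did not pass (unadjusted p = 0.112 in the edgeR model). Transcript remained detectable in every KO library, and gene-level counts do not show which exons those reads came from.

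**Figure D1:**
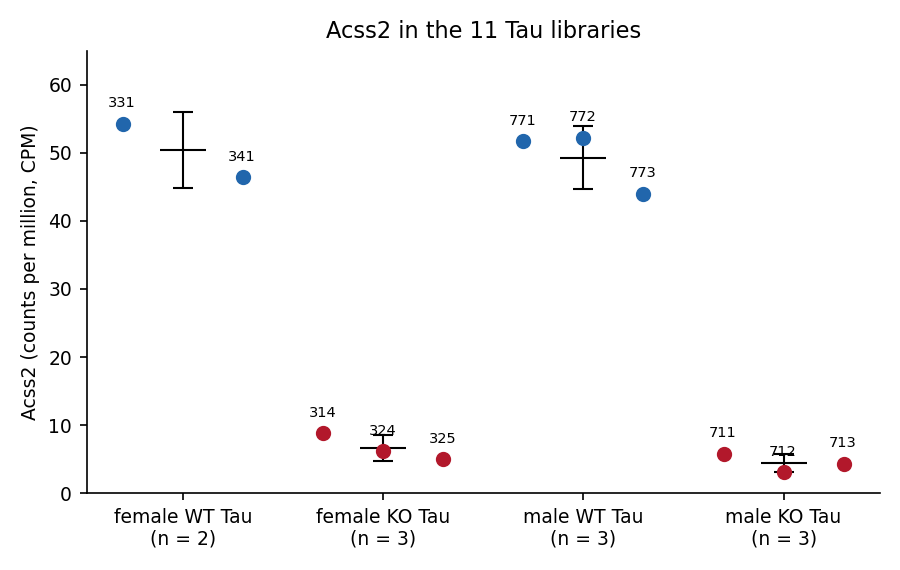
Acss2 in CPM (vertical axis) in each of the 11 Tau libraries, by sex and genotype (horizontal axis). Points are libraries with their numbers, and bars give the mean ± SD. All 3 female KO libraries sit between 4.98 and 8.81 CPM, below the WT libraries at 46.4 and 54.3 CPM.

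No other gene passed. Of 15419 genes tested in 1 fit of the 11 Tau libraries, 1 (0.00649%) had an edgeR adjusted p under 0.05, and that was Acss2. At an unadjusted p under 0.05 there were 201 genes higher in KO (1.30% of those tested) and 245 lower (1.59%), 446 in all. In this fit these shares lie below the 5% over both directions that this threshold passes when no gene differs. The number depended on the libraries. By edgeR it was 193, 317 and 1354 without KO library 314, 324 and 325. It was 876 without male KO library 711 and 316 to 491 without any other male library. With 1 surrogate variable, added after seeing the data, it was 1040. The libraries of the genotypes did not overlap for 886 genes higher in KO (5.75%) and for 1586 genes lower in KO (10.3%), which is the share to set beside each count of non-overlapping members below. The directions over all genes were near balance, with 7395 higher, 8021 lower and a median log2 fold change of -0.01. The biological coefficient of variation was 18% in the Tau libraries and 17.6% in the 5 female libraries alone.

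The count of calls rested on the test. The DESeq2 Wald test on the 11 Tau libraries also called 1 gene, and edgeR on the 5 female libraries alone called 0 (308 genes at an unadjusted p under 0.05). DESeq2 on the 5 female libraries called 4, namely Acss2, Ctgf, Malat1 and Alas2, and these last 3 are described here because they were called, after their values were seen.

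Ctgf, which encodes connective tissue growth factor, a secreted matrix protein, stood at 14.8, 13.5 and 14.7 CPM in KO and at 32.4 and 37.2 CPM in WT. The KO libraries were close to each other and lay well below both WT libraries. The log2 fold change was -1.22 (SE 0.20) with an adjusted p of 1.02e-05 in DESeq2 on the females, and -1.23 (SE 0.68) with an adjusted p of 0.997 in edgeR on the 11 Tau libraries. The SE was larger in the second fit, which included the male KO libraries at 2.78, 49.4 and 27.1 CPM. With 1 surrogate variable in the edgeR model, added after seeing the data, the log2 fold change was -0.02. DESeq2 on the females lost the call without KO library 324 or WT library 341. In the males the log2 fold change was 0.04 (SE 0.61), with overlapping groups.

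Malat1, a long noncoding RNA retained in the nucleus, stood at 849, 849 and 958 CPM in KO and at 538 and 595 CPM in WT. The lowest KO library lay above the highest WT library by far more than either group's spread, with means of 886 ± 63 CPM (SD, n = 3) and 567 ± 40.6 CPM (SD, n = 2). DESeq2 on the females gave a log2 fold change of 0.70 (SE 0.14, adjusted p = 0.0072), and edgeR on the Tau libraries gave 0.69 (SE 0.26, unadjusted p = 0.0233, adjusted p = 0.997). With 1 surrogate variable it was 0.38 (SE 0.19). With each female library left out in turn, DESeq2 on the females called Malat1 only without WT library 341. Malat1 (ENSMUSG00000092341.3) lies on the minus strand of chromosome 19, 5795690 to 5802672.

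Alas2, the erythroid enzyme that starts heme synthesis, stood at 20.9, 12.9 and 48.4 CPM in KO and at 8.57 and 4.76 CPM in WT. KO library 325 carried more than the other KO libraries, although all 3 were above WT. DESeq2 on the females gave a log2 fold change of 2.09 (SE 0.46, adjusted p = 0.0275), and edgeR on the Tau libraries 2.08 (SE 0.52, adjusted p = 0.997). In the males it was 0.51 (SE 0.47), with overlapping groups. In DESeq2 the call was lost without KO library 314, WT library 331 or WT library 341. The globin genes Hba-a1 and Hbb-bs were listed at 0 in all 5 libraries, as were the other members of the red cell list than Alas2, so no level of another member can be set beside it.

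The genes with the smallest p among those that did not overlap were taken as leading genes, 12 on each side. Apart from Acss2 none passed the adjusted threshold by edgeR (adjusted p = 0.997 for each), and their order describes these 5 libraries only. Among those higher in KO, 3 besides Alas2 are known from erythroid cells, a grouping made after the genes were seen. Slc4a1, the band 3 anion exchanger of the red cell membrane, stood at 1.55, 0.547 and 2.80 CPM in KO and at 0.174 and 0.267 CPM in WT. Fam46c, a poly(A) polymerase abundant in erythroid and plasma cells, stood at 3.03, 3.35 and 3.86 CPM against 1.74 and 1.25 CPM. Isg20, an interferon-inducible exonuclease, stood at 2.40, 1.71 and 4.29 CPM against 1.16 and 1.11 CPM. For Alas2, Slc4a1 and Isg20 the 3 KO libraries had the same order, with 325 highest and 324 lowest, and for all 4 genes library 325 was the highest of the 5. In the males the log2 fold changes of Slc4a1 and Fam46c were 0.28 (SE 0.96) and 0.45 (SE 0.32), with overlapping groups. Isg20 had -1.02 (SE 0.39) there, with every KO library below WT. Slc4a1, Fam46c and Isg20 were all under 5 CPM, and the part of blood left in the tissue was not tested.

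The other leading genes on the higher side were of several kinds. Atad2, a bromodomain ATPase of chromatin that binds acetylated histones, stood at 9.59, 9.64 and 11.4 CPM in KO and at 6.02 and 7.08 CPM in WT (log2 fold change 0.68, SE 0.15, unadjusted p = 0.000785 by edgeR). Slc30a1, the zinc exporter of the plasma membrane, was at 47.8, 52.7 and 46.9 CPM against 38.2 and 39.0 CPM. Dync2h1, the motor of retrograde transport in cilia, was at 45.8, 48.7 and 45.5 CPM against 33.8 and 37.8 CPM. Both had tight groups and small differences, 0.40 (SE 0.11) and 0.43 (SE 0.12) on the log2 scale.

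Kcna4, a voltage-gated potassium channel of the A type, stood at 31.7, 35.7 and 28.2 CPM in KO and at 21.2 and 25.1 CPM in WT. Kcnh7, a channel of the ERG family, stood at 26.2, 17.4 and 10.6 CPM in KO and at 7.29 and 10.4 CPM in WT, so KO library 325 was nearly level with WT library 341. The gene listed as 2410089E03Rik was at 54.3 to 66.6 CPM in KO and at 43.9 and 46.3 CPM in WT. Apol11b and Scgb3a1 rested on few reads. Apol11b had 53 reads over the KO libraries and 5 over the WT libraries, a CPM ratio of 9.38 (95% exact interval 3.78 to 30.1), and Scgb3a1, a secretoglobin of epithelia, had 46 and 2 reads, a ratio of 20.4 (5.32 to 173). These intervals cover counting error only, not the spread between animals.

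On the lower side Top2a had the smallest p after Acss2. Top2a, the topoisomerase of proliferating cells, stood at 0.353, 0.342 and 0.746 CPM in KO and at 1.68 and 2.18 CPM in WT, a log2 fold change of -1.95 (SE 0.43, unadjusted p = 0.000776 by edgeR). Mki67, another marker of proliferation and no leading gene, was at 1.06, 1.30 and 1.12 CPM against 1.68 and 2.27 CPM. Gpr17, a receptor that marks oligodendrocyte precursors on the way to myelination, stood at 21.6, 15.5 and 20.3 CPM in KO and at 34.0 and 30.5 CPM in WT (log2 fold change -0.70, SE 0.17). The KO values of Gpr17 and Top2a lay below both WT values, but for Top2a they correspond to 5 to 12 reads per KO library. Of 8 genes of neurogenesis and cell division, 6 were lower (median -0.21, -0.49 without KO library 325) and 3 did not overlap. Of the 2 higher members, Dcx stood at 19.5, 9.64 and 10.9 CPM in KO and at 8.86 and 10.1 CPM in WT, with overlap (log2 fold change 0.55, SE 0.38).

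The other leading genes on the lower side had various roles. Coq7, a hydroxylase of ubiquinone synthesis, stood at 20.2, 22.7 and 29.1 CPM in KO and at 38.9 and 32.9 CPM in WT (log2 fold change -0.53, SE 0.13). Elovl1, the elongase of very long chain fatty acids, stood at 10.2, 9.16 and 10.9 CPM against 15.7 and 14.8 CPM (-0.55, SE 0.15). Psmb3, a subunit of the proteasome, stood at 27.9, 23.7 and 33.6 CPM against 42.0 and 39.4 CPM. For Coq7 and Psmb3 the KO library closest to WT was 325.

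Csk, the kinase that restrains Src, was at 21.7 to 29.6 CPM in KO and at 34.6 and 34.0 CPM in WT. Gm13889 was at 16.2 to 18.3 CPM against 23.9 CPM in both WT libraries, and Sgk2, a serum and glucocorticoid regulated kinase, was at 1.06 to 1.57 CPM against 2.72 and 2.85 CPM. Serpinb1a (7.04 to 10.3 CPM against 23.8 and 11.4), Tnfrsf12a, the receptor of the cytokine TWEAK (1.97 to 3.11 against 8.39 and 4.01), and Tinagl1, a matrix protein of vessels (6.91 to 9.52 against 15.1 and 11.4), were higher in WT library 331 than in WT library 341. The gap between the WT libraries was wide for Serpinb1a and Tnfrsf12a, at 1.00 and 0.99 on the log2 scale, and for Tinagl1 it was 0.33, about the range within KO (0.32).

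**Figure D2:**
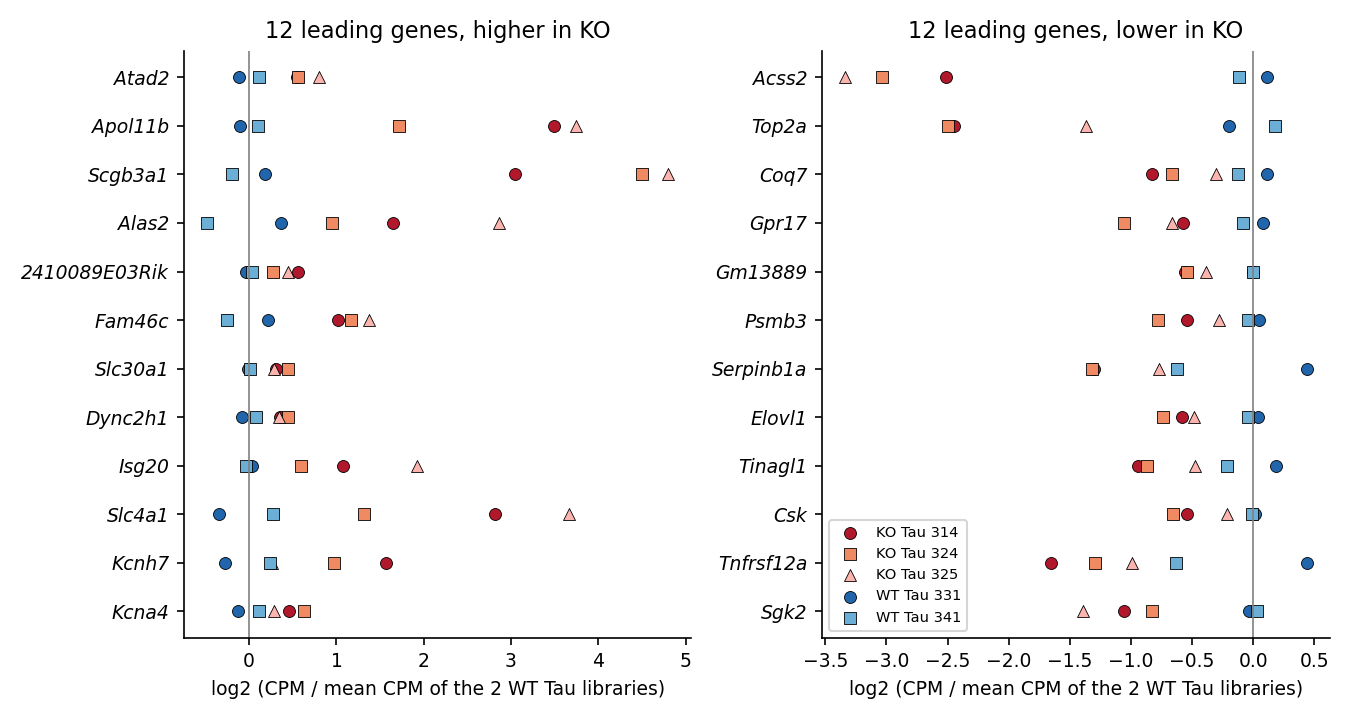
The 12 leading genes higher in KO (left) and the 12 lower in KO (right), each point a library placed by the log2 ratio of its CPM to the mean of the 2 WT Tau libraries. Red and orange marks are KO, blue marks WT. Acss2 shows the widest gap on the lower side, from -2.86 on the log2 scale in the fit, while Apol11b, Scgb3a1 and Slc4a1 rest on 5, 2 and 9 WT reads.

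The libraries did not group by genotype over all 15419 genes. Each of the 5 had a count for 17573 to 18055 genes, and the 50 most abundant genes took 10.5% to 12.0% of the reads. KO library 325 and WT library 331 were the most alike of the 10 pairs, with 388 genes (2.52%) over 2-fold apart and a Pearson r of 0.9890 across genes. The most distant pair was KO library 314 and WT library 331, with 1147 genes (7.44%) over 2-fold apart. Pairs within a genotype fell between these, at 737, 996 and 836 genes among the KO libraries and 717 between the WT libraries. Libraries 314 and 324 were each closer to WT library 341 (594 and 566 genes) than to KO library 325. The leading principal component, with 48.1% of the variance, placed 325 and 331 at 26.4 and 35.4 and the other 3 libraries at -34.7, -17.5 and -9.6.

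**Figure D3:**
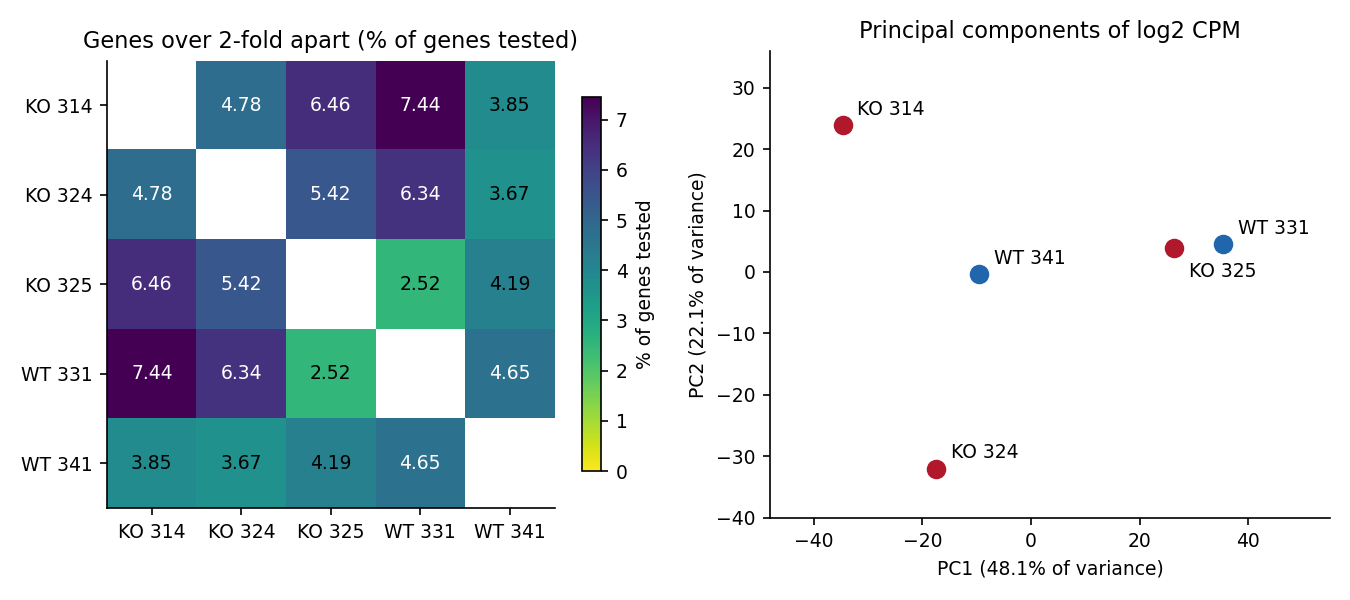
Left, percent of the 15419 tested genes that differ over 2-fold between each pair of female libraries. Right, the libraries on the leading 2 principal components of log2 CPM (48.1% and 22.1% of variance), KO in red and WT in blue; KO library 325 lies beside WT library 331.

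Marker lists of cell layers and of neighbouring tissue describe how the libraries differed. In what follows a list's score is the mean log2 CPM of its tested members in a library, and no list was tested as a set. In a bulk sample fewer cells of a type and less RNA per cell cannot be told apart. The score of CA1 pyramidal cell genes was 6.45 and 6.46 in KO libraries 314 and 324, 6.13 in WT library 341, and 5.56 and 5.23 in KO library 325 and WT library 331. Fibcd1, a marker of CA1 neurons, ran the same way, at 152, 184 and 82.9 CPM in KO and 32.5 and 145 CPM in WT. The score of dentate granule cell genes was 4.76, 4.39 and 5.51 in KO against 5.29 and 5.26 in WT, with C1ql2, a synaptic protein of granule cells, at 30.0, 32.3 and 124 CPM in KO and 104 and 73.9 CPM in WT. Library 325 was therefore low in CA1 genes and high in granule cell genes for a KO library, and 331 low in CA1 genes for a WT library.

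Markers of tissue next to the hippocampus differed between libraries as much as between genotypes. Thalamic genes had a score of 2.77 in KO library 314 and of 4.18 to 5.12 in the other 4, and Prkcd, a marker of thalamic relay neurons, ranged from 27.8 to 191 CPM within KO alone. Choroid plexus genes had a score of 2.42 in KO library 314, 0.59 and 0.99 in the other KO libraries, and 0.00 and 0.87 in WT. Ttr, transthyretin, the most abundant choroid plexus transcript, stood at 307, 40.4 and 53.8 CPM in KO and at 7.12 and 40.1 CPM in WT, so 324 and WT library 341 were level. Of 16 choroid plexus genes 15 were higher in KO, with a median log2 fold change of 1.20 that was 0.39 without KO library 314. In the males 16 of 16 were higher, with a median of 2.04. Male Ttr was also uneven, at 229, 42.0 and 3775 CPM in KO and 85.2, 492 and 24.4 CPM in WT. The genes with the widest range among the KO libraries were Tfap2b, Shox2, Igfn1, Tnnt1 and Sfrp5, and Shox2, a transcription factor of the thalamus, stood at 1.06, 29.0 and 28.4 CPM in KO and 31.3 and 9.21 CPM in WT. Between the WT libraries the widest gaps were those of Lcn2, Ttr, S100a9, Myoc and Tnnt1. Lcn2, a secreted protein of inflamed astrocytes and neutrophils, was at 0.521 CPM in 331 and 6.14 CPM in 341, against 5.50, 6.22 and 22.9 CPM in KO. The part of dissection in the genotype comparison was not tested.

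The acetyl-CoA enzymes other than Acss2 were close in both genotypes. Of 17 members, Acss2 included, 14 were lower and 3 higher in KO, with a median log2 fold change of -0.09 (-0.01 over all genes) and Acss2 as the only call. Groups did not overlap for 6 members lower in KO, Acss2 included, and for 1 higher. Acss1, which makes acetyl-CoA from acetate inside the mitochondrion, was the member higher in KO without overlap, at 49.4, 60.2 and 60.5 CPM against 48.3 and 44.2 CPM. It is named after its values were seen, and its log2 fold change of 0.34 (SE 0.24, unadjusted p = 0.18 in edgeR) was small against the spread. Acly, the citrate lyase that is the main other source of acetyl-CoA outside the mitochondrion, was at 146, 144 and 162 CPM against 168 and 178 CPM, and Pdhx, a component of pyruvate dehydrogenase, at 42.2, 47.5 and 47.8 CPM against 56.5 and 54.2 CPM. Acat2, which condenses acetyl-CoA at the entry of the sterol pathway, was at 17.9, 21.1 and 22.8 CPM against 23.2 and 30.8 CPM.

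Enzymes that use or read histone acetylation showed no call. Of 10 histone acetyltransferases tested 6 were higher and 4 lower (median 0.04). Kat6a was at 94.3, 86.5 and 93.2 CPM in KO and 73.9 and 80.8 CPM in WT, and Ep300, the p300 coactivator, at 83.2, 67.8 and 80.0 CPM against 59.2 and 72.9 CPM. The 16 histone deacetylases split evenly into 8 and 8 (median 0.00), and of 8 acetyl-lysine readers 6 were higher and 2 lower (median 0.06). Without WT library 341 the medians of the acetyltransferases and the readers were 0.22 and 0.24.

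Genes of sterol and fatty acid synthesis were lower in KO more often than not. Of 31 members 26 were lower and 5 higher, with a median log2 fold change of -0.20, and 4 had an unadjusted p under 0.05, all lower. Groups did not overlap for 12 members, all lower in KO (10.3% of all genes tested were lower without overlap). Cyp51, the lanosterol demethylase, stood at 68.0, 81.9 and 86.5 CPM in KO and at 100 and 106 CPM in WT (log2 fold change -0.34, SE 0.12, unadjusted p = 0.015 in edgeR). Sc5d, a desaturase near the end of cholesterol synthesis, stood at 54.4, 52.0 and 62.4 CPM against 67.0 and 75.4 CPM (-0.29, SE 0.11). Mvk and Mvd, kinase and decarboxylase of the mevalonate route, stood at 16.2, 16.5 and 18.7 CPM against 20.2 and 25.4 CPM, and at 12.1, 11.9 and 13.8 CPM against 14.2 and 21.0 CPM. None passed the adjusted threshold, and the list's median ran from -0.29 to -0.11 as each female library was left out, at its smallest without WT library 341.

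The list's score, the mean log2 CPM of its members, was 5.93, 5.95 and 5.90 in KO, 5.98 in WT library 331 and 6.23 in WT library 341. The genotypes did not overlap, although 331 lay next to the KO libraries. In the males, which share no animal with the females, the median was -0.05 with 17 of 31 lower. Cyp51 and Sc5d had log2 fold changes of -0.26 (SE 0.11) and -0.23 (SE 0.10) there, with unadjusted p of 0.035 and 0.0432 in edgeR and groups that did not overlap, and Mvk had 0.15 (SE 0.12).

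Nuclear genes of oxidative phosphorylation were lower in KO for 70 of 79 members tested (median -0.15). Groups did not overlap for 9 members, all lower in KO, a share near the 10.3% of all genes tested. Only 1 had an unadjusted p under 0.05 in edgeR. It was Atp5g1, a subunit of the ATP synthase rotor, at 47.0, 52.5 and 63.9 CPM against 72.7 and 65.3 CPM. The list's score, however, was highest in WT library 331 (6.74) and KO library 325 (6.57). It was lowest in KO library 314 (6.20), with WT library 341 at 6.36. Without WT library 331 the median was 0.00. Ribosomal protein genes were also highest in WT library 331 and KO library 325, at 6.70, 6.85 and 7.15 in KO against 7.21 and 6.69 in WT, with 56 of 78 lower and a median of -0.04 that became 0.24 without WT library 331. In the males these lists had medians of 0.13 and 0.24. Genes encoded in the mitochondrion were not analysed here.

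Immediate early genes, the transcription factors and effectors that neuronal firing induces within minutes, were higher in KO for 26 of 30 members, with a median log2 fold change of 0.27. The score was 5.22, 5.07 and 4.63 in KO against 4.35 and 4.96 in WT, so KO library 325 lay below WT library 341. Npas4, an activity-dependent factor that the study discusses, stood at 14.9, 10.1 and 9.83 CPM in KO and at 2.84 and 8.32 CPM in WT. Its groups did not overlap, and its log2 fold change of 1.08 (SE 0.60, unadjusted p = 0.0988 in edgeR) did not pass. In the males Npas4 was also higher in KO, at 1.65 on the log2 scale with overlapping groups (SE 0.50, unadjusted p = 0.00665 and adjusted p = 0.999 in edgeR). Arc, which shapes synapses after activity, was at 280, 223 and 122 CPM against 105 and 149 CPM, and Egr3 at 151, 108 and 96.0 CPM against 73.1 and 99.4 CPM, both with overlap.

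Bdnf, the neurotrophin gene whose transcription follows activity, had tighter values. It stood at 51.3, 52.1 and 56.4 CPM in KO and at 41.8 and 47.8 CPM in WT (log2 fold change 0.30, SE 0.12, unadjusted p = 0.0266 and adjusted p = 0.997 in edgeR). Ptgs2, cyclooxygenase 2, stood at 35.3, 32.1 and 40.4 CPM against 18.6 and 31.2 CPM (0.57, SE 0.24). For both, all KO libraries lay above both WT libraries, though KO library 324 and WT library 341 were nearly level for Ptgs2. The list's median was 0.02 without WT library 331 and 0.62 without WT library 341. In the males it was -0.14, with 18 of 30 lower.

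Synaptic genes were lowest in WT library 331 and KO library 325. Of 18 postsynaptic scaffold genes 17 were higher in KO (median 0.38), with scores of 8.70, 8.55 and 8.02 in KO and 7.86 and 8.27 in WT and 2 members without overlap. Dlg2, a membrane-associated guanylate kinase of the postsynaptic density, was at 651, 431 and 402 CPM against 356 and 380 CPM, and Shank1 at 997, 806 and 522 CPM against 517 and 535 CPM. For Shank1 KO library 325 was level with WT. Of 16 ionotropic glutamate receptor genes 10 were higher and 6 lower (median 0.06). Grin2b, an NMDA receptor subunit, stood at 119, 132 and 75.1 CPM against 36.4 and 86.1 CPM, with an unadjusted p of 0.0246 in edgeR although the groups overlapped. Presynaptic genes were higher for 12 of 17 (median 0.10), Pclo, the active zone protein piccolo, at 358, 316 and 249 CPM against 157 and 282 CPM. Without WT library 331 the medians of the postsynaptic, ionotropic receptor and presynaptic lists were 0.17, -0.04 and -0.11, and without WT library 341 they were 0.61, 0.24 and 0.30. In the males they were 0.11, -0.08 and 0.00.

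Oligodendrocyte genes were lower in KO for 14 of 14 members, with log2 fold changes from -0.68 to -0.38 and a median of -0.47. The score was 7.07, 7.58 and 7.12 in KO and 8.02 and 7.43 in WT, so KO library 324 lay above WT library 341. Gjb1, connexin 32 of myelin, stood at 9.80, 18.0 and 15.5 CPM against 29.5 and 18.8 CPM, and Cldn11, the tight junction protein of myelin, at 123, 168 and 117 CPM against 207 and 178 CPM (unadjusted p = 0.0137 and 0.0475 in edgeR). Groups did not overlap for 5 of the 14. WT library 331 carried most of the difference: without it the median was -0.15, and without WT library 341 it was -0.74. In the males it was -0.20. Among 9 precursor genes 8 were lower, Gpr17 furthest, with Olig2 at 28.8, 35.0 and 27.4 CPM against 43.0 and 38.7 CPM.

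Genes of vessels and of the meninges were lower in KO as well. Of 15 endothelial genes 12 were lower (median -0.16), and Cldn5, the tight junction protein of the blood-brain barrier, stood at 37.5, 50.4 and 51.6 CPM against 80.3 and 55.9 CPM. Kdr, the VEGF receptor, stood at 13.6, 14.9 and 15.7 CPM against 24.8 and 19.8 CPM. Among 9 genes of pericytes and smooth muscle 6 were lower (median -0.32), with Tagln, an actin-binding protein of smooth muscle, at 5.99, 6.70 and 13.2 CPM against 20.1 and 15.8 CPM and Acta2 at 6.70, 8.82 and 16.4 CPM against 22.9 and 14.6 CPM. Of 10 genes of meninges and fibroblasts 9 were lower (median -0.49) and 5 did not overlap, Col3a1, a fibrillar collagen, at 1.20, 1.37 and 3.05 CPM against 5.79 and 5.16 CPM. In all 3 lists KO library 325 had the highest KO score, and the medians stayed negative as each female library was left out, the endothelial median reaching -0.02 without WT library 331 and the meningeal one -0.75 without KO library 325. In the males the endothelial, pericyte and meningeal medians were 0.10, -0.16 and -0.06.

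Glial and immune genes showed no call. Disease-associated microglial genes were lower for 13 of 18 (median -0.13) with scores of 4.68, 5.48 and 5.17 in KO against 5.42 and 5.18 in WT, and homeostatic microglial genes for 7 of 12 (median -0.07). Tmem119, a marker of resident microglia, was at 26.5, 29.5 and 31.0 CPM against 34.9 and 33.9 CPM, and Cst7, a cystatin of activated microglia, at 0.705, 2.19 and 1.49 CPM against 3.18 and 2.09 CPM. Reactive astrocyte genes were lower for 14 of 17 (median -0.09), homeostatic astrocyte genes for 10 of 15 (median -0.03), complement genes for 9 of 12 (median -0.11), interferon response genes for 14 of 17 (median -0.16) and MHC genes for 7 of 13 (median -0.06). Each of these 7 medians came to lie at 0 or above when 1 particular library was left out. Tmem119 did not overlap, and Cst7 did. Library 314 had the lowest scores of the 5 for disease-associated microglia, reactive astrocytes and interferon genes.

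**Figure D4:**
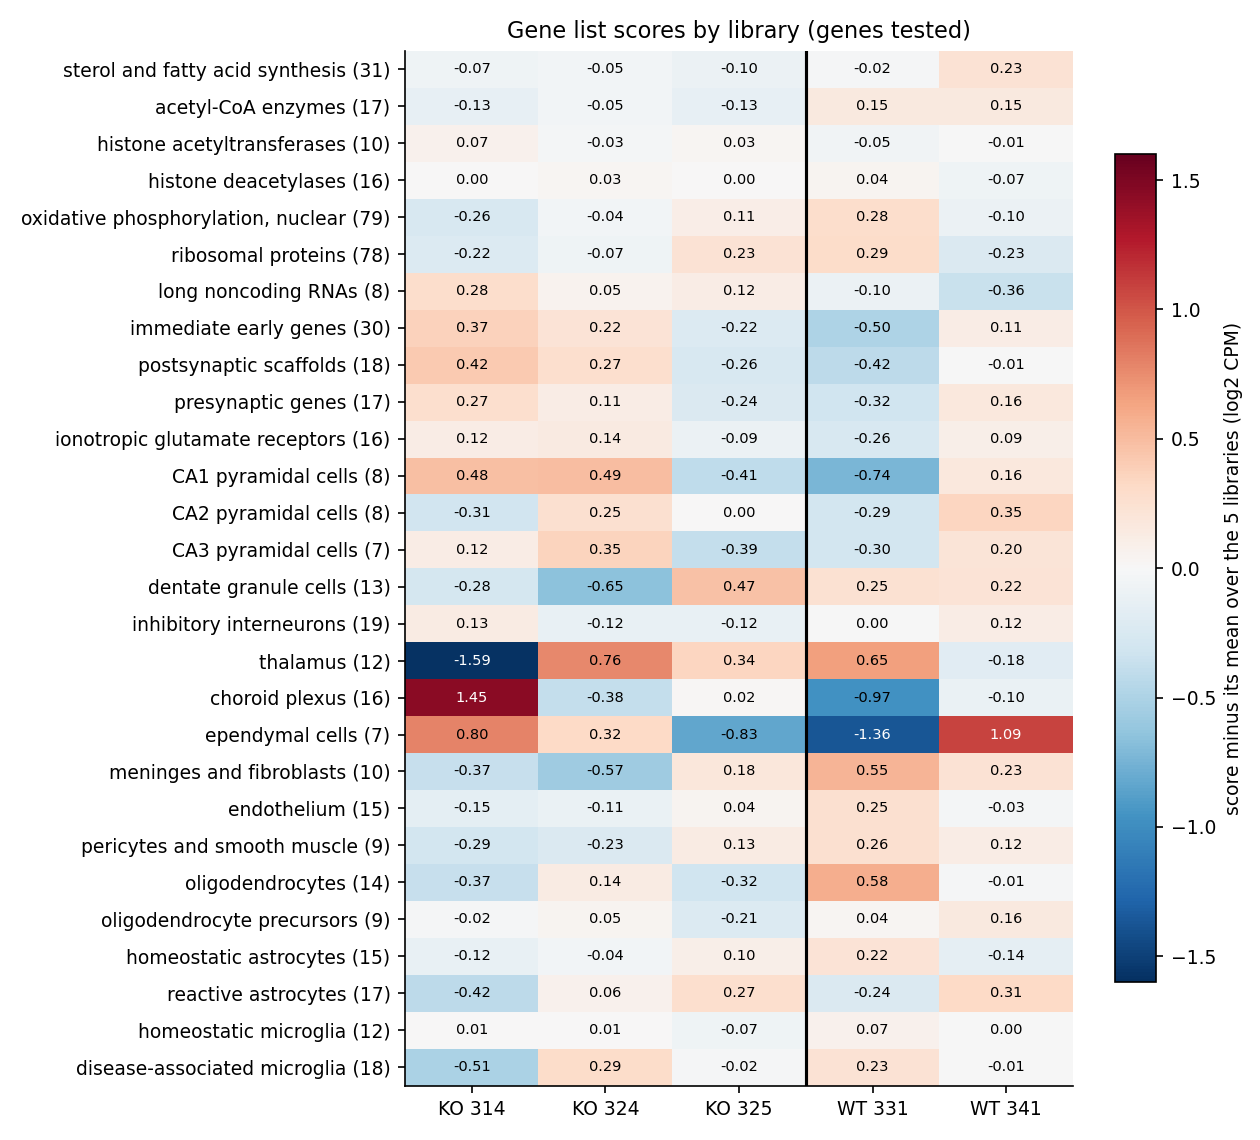
Scores of 28 gene lists (rows, number of genes tested in brackets) in the 5 female libraries (columns, KO left of the line), as the difference in mean log2 CPM from the mean over the libraries. CA1, synaptic and immediate early lists are low in KO 325 and WT 331, and choroid plexus genes are high in KO 314, where the score is 2.42 against 0.00 in WT 331.

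Long noncoding RNAs, among which Malat1 was named above, were higher in KO for 8 of 8 members (median 0.40). The score was 8.20, 7.97 and 8.04 in KO and 7.82 and 7.56 in WT, and this was a list whose KO and WT scores did not overlap. Snhg11, a neuronal host gene of small nucleolar RNAs, stood at 1249 to 1669.7 CPM in KO and at 1045 and 917 CPM in WT, Meg3 at 2658, 1869 and 2133 CPM against 1927 and 1518 CPM, and Kcnq1ot1 at 21.6, 14.0 and 26.9 CPM against 18.6 and 14.5 CPM. Groups did not overlap for 3 of the 8. The median ran from 0.26 to 0.56 as each female library was left out, and in the males it was 0.33 with 7 of 8 higher, so the direction did not hang on a particular female library. Total counts also separated the genotypes, at 14183131, 14631233 and 16078293 in KO and 17275181 and 22463635 in WT. With the Tau libraries thinned to the smallest female total the number of genes called stayed at 1. That gene was Acss2, so the count does not bear on this list. Malat1 had a log2 fold change of 0.69 (SE 0.26) both with this thinning and without it. The part of depth in the list as a whole was not tested.

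The clock genes were another list with several non-overlapping members. Of 16 genes 12 were higher in KO (median 0.12), 4 of them without overlap. The median was 0.05 without KO library 314 and 0.22 without KO library 325. Per3 stood at 48.4, 48.0 and 49.3 CPM in KO and at 37.7 and 39.1 CPM in WT (log2 fold change 0.39, SE 0.15, unadjusted p = 0.0229 in edgeR), and Per2 at 37.9, 35.8 and 45.7 CPM against 30.9 and 35.4 CPM. Both encode repressors of the clock. Arntl, which encodes the activator BMAL1, was at 36.5, 32.6 and 32.9 CPM against 30.3 and 29.8 CPM. Per3 was tight within each genotype. The time of day at which the tissue was taken was not given in the sources used here.

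Genes tied to tau and to the transcription factors and adhesion pathways that the study discusses showed no call. Mapt, the mouse tau gene, stood at 531, 536 and 495 CPM in KO and 550 and 530 CPM in WT, a log2 fold change of 0.00 (SE 0.14). Among 10 genes of tau and other microtubule-associated proteins 7 were higher (median 0.08, 0.00 without KO library 324). Groups did not overlap for 1 higher and 2 lower members. The higher one was Map2, of dendrites, at 2504, 1961 and 1864 CPM against 1681 and 1492 CPM (log2 fold change 0.47, SE 0.27). Of 18 tau kinases and phosphatases 12 were higher (median 0.03, -0.10 without WT library 331), and 1 higher and 2 lower members did not overlap. The higher one was Ttbk1, a kinase of tau, at 215, 196 and 152 CPM against 145 and 150 CPM (log2 fold change 0.41, SE 0.19). Of 13 genes of App processing 10 were lower (median -0.05). Lysosomal genes were lower for 16 of 21 (median -0.10, -0.04 without KO library 314), and genes of the unfolded protein and integrated stress responses for 17 of 20 (median -0.11, 0.04 without WT library 331).

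Rfx3, Rfx5 and Rfx7, the winged-helix factors of cilia and MHC genes, had log2 fold changes of -0.15 (SE 0.33), 0.12 (SE 0.15) and 0.22 (SE 0.14), and Rbpj, the effector of Notch, 0.03 (SE 0.14). Their groups overlapped, Rfx3 running from 44.0 to 92.2 CPM within KO alone. Reln, the secreted reelin, was at 47.8, 29.1 and 44.5 CPM against 34.6 and 41.2 CPM, and its adaptor Dab1 at 170, 123 and 123 CPM against 119 and 139 CPM. Sema3c, a guidance cue, was at 26.9 to 35.0 CPM in KO and at 35.1 and 38.9 CPM in WT, with a log2 fold change of -0.22 (SE 0.15). Grik1, a kainate receptor subunit, had -0.29 (SE 0.27), Lingo1 0.14 (SE 0.34) and Ncam2 -0.11 (SE 0.16), all with overlapping groups. For Rfx3, Rfx5, Rbpj, Reln, Dab1, Lingo1 and Ncam2 the sign changed when a particular female library was left out.

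The genes that flank Acss2 on chromosome 2 were examined because alleles of the targeted strain can travel with a deleted gene. Of the 10 nearest tested genes on each side, 7 were higher and 13 lower in KO (median -0.09, and -0.01 without KO library 314 or WT library 331), and 0 passed the edgeR threshold, 0 also at an unadjusted p under 0.05. Groups did not overlap for 1 higher and 3 lower members. Pigu, a subunit of the GPI transamidase, was at 13.3, 11.8 and 16.0 CPM against 17.4 CPM in both WT libraries, and Eif6, a factor of ribosome assembly, at 29.7, 45.3 and 41.4 CPM against 50.2 and 45.5 CPM.

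The male libraries show what the female genes did in other animals. Of the 445 genes with an unadjusted p under 0.05 in females, Acss2 left out, 231 (51.9%) had the same sign in males, beside 49.5% of the 15418 genes tested other than Acss2. Of those 445, 20 also had an unadjusted p under 0.05 in males with the same sign and 9 with the opposite sign. Over the 15418 genes, 339 had an unadjusted p under 0.05 by edgeR in males with the same sign as in females. With the opposite sign there were 287. Across all genes the log2 fold changes of the sexes had a Pearson r of 0.135 and a Spearman rho of 0.006 (15418 genes, which are not independent). The leading genes were similar: 8 of 12 on the higher side and 5 of 11 on the lower side, Acss2 left out, kept their sign in males. Sgk2, with a log2 fold change of -1.02 (SE 0.29) in females, had -0.60 in males with groups that did not overlap, and Gm13889 had -0.44 and -0.18, again without overlap in either sex. Top2a had -0.36 in males, and Atad2 had 0.07.

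A test of the difference itself called no gene. By edgeR the sex by genotype contrast had 0 of 15419 genes under an adjusted p of 0.05 and 454 at an unadjusted p under 0.05, and DESeq2 on the same libraries called 1, Bdnf. Female and male libraries were numbered in separate series, so sex cannot be told apart from anything else that differed between these sets of libraries. In males Bdnf stood at 45.2, 37.9 and 43.1 CPM in KO and at 68.0, 70.1 and 62.7 CPM in WT, below WT in every KO library, whereas every female KO library was above the female WT libraries. The difference between the sexes was 0.94 on the log2 scale (SE 0.16), with an unadjusted p of 7.84e-05 and an adjusted p of 0.978 in edgeR, and an adjusted p of 0.00299 in DESeq2. The other 5 leading genes of this contrast were Isg20 and Fosl2, an AP-1 factor, with a more positive difference in females, and Ddrgk1, Avp and Aldh1l1 with a more positive one in males. Avp, vasopressin, is a hypothalamic transcript and stood at 0.547 to 1.91 CPM in females. CA1 genes had a male median of -0.45 and a female median of 0.42, which was 0.01 without WT library 331 and 0.79 without WT library 341.

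**Figure D5:**
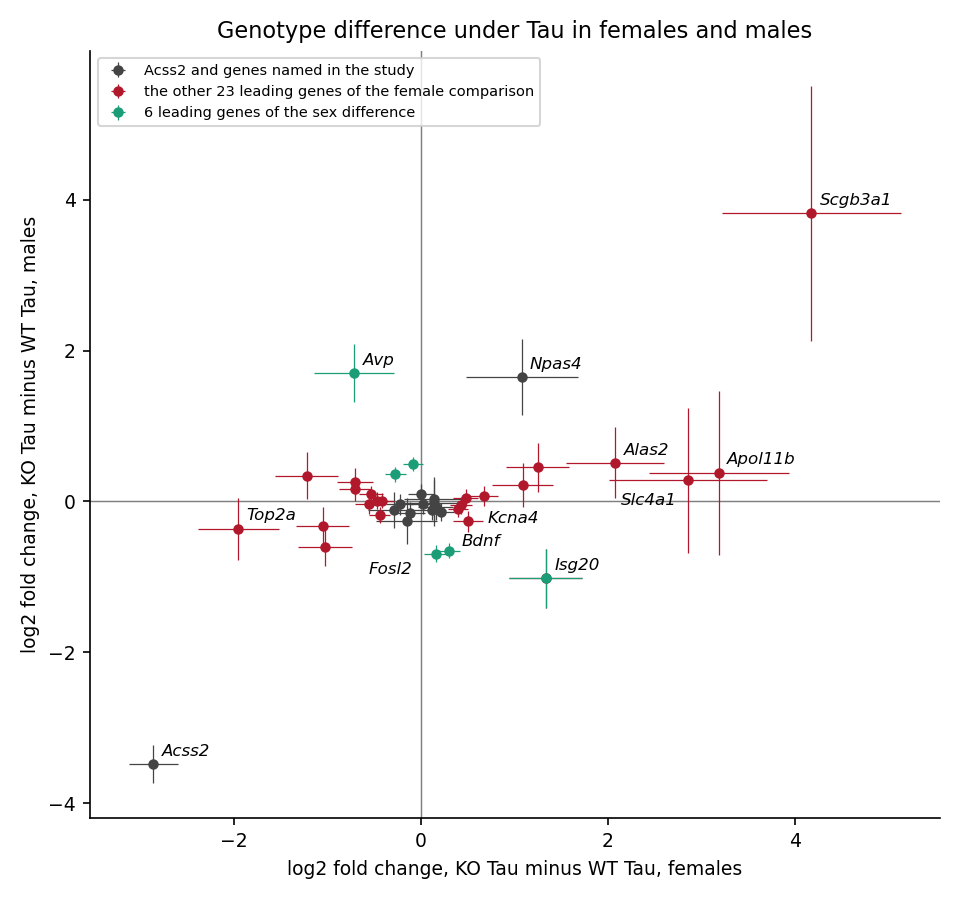
Log2 fold change of KO Tau minus WT Tau in females (horizontal) and males (vertical) for Acss2 and the genes the study names (grey), the other leading genes of the female comparison (red) and the 6 leading genes of the sex difference (green, Isg20 being in both sets), with bars of ± 1 SE. Acss2 is low in both sexes, at -2.86 and -3.48, and Bdnf lies at 0.30 in females and -0.65 in males.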

How the data were processed

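Poly(A) RNA of dorsal hippocampus was sequenced. Per the labels and the methods, the authors aligned reads with STAR 2.5.2 to GRCm38 (mm10) and counted exon reads per gene with HTSeq 0.9.1 in reverse-stranded mode. What the authors deposited were unnormalized counts, listed by symbol. The annotation release was not given in the sources used here. The study's own test was DESeq2. The series describes its replicates as biological.

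Counts were tested in R 4.3.3 with edgeR 4.0.16 (quasi-likelihood F-test, TMM, filterByExpr with minimum count 10 and minimum total 15, Benjamini-Hochberg over 15419 genes, threshold 0.05) in 1 fit of the 11 Tau libraries with a mean per sex and genotype. Alternatives used DESeq2 1.42.0, limma 3.58.1 and sva 3.50.0, and the steps were checked on simulated counts. Scores of lists averaged log2 CPM (prior count 2) over tested members. Positions came from a GRCm38 annotation, in which 98.4% of the 24498 symbols were found. Total counts per library were 14183131 to 22463635, so 3 counts, the limit that a count of 0 allows, were 0.134 to 0.212 CPM. Counting intervals and limits cover counting error only.

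Named genes were Acss2, genes the study names, called genes, 12 leading genes per side (non-overlapping groups, mean of at least 1 CPM in the higher group, smallest p), 3 per side of the sex contrast, the 4 members of smallest p in each of 52 lists, defining markers, and the 5 genes with the widest range per genotype (mean of at least 5 CPM). The members and lists were chosen with earlier results of these data known. Reads of near-identical genes may have been split or lost in the counting.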

Additional observations from a re-analysis of the deposited data

Results flagged for a closer look

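For 4 named genes every female KO library lay above the female WT libraries and every male KO library lay below the male WT libraries. The difference between the sexes was tested as an interaction in edgeR, and none had an adjusted p under 0.05 (0.978 for each). Sex cannot be told apart from other differences between the female and male sets of libraries. Bdnf had an interaction of 0.94 on the log2 scale (SE 0.16). Isg20 had 2.36 (SE 0.56), from 1.71 to 4.29 CPM in female KO and 0.313 to 0.612 CPM in male KO. Kcna4 had 0.78 (SE 0.21), with male KO at 24.8 to 29.1 CPM and male WT at 30.1 to 35.6 CPM. Ptgs2 had 1.01 (SE 0.32), with male KO at 14.3 to 22.4 CPM and male WT at 24.8 to 30.6 CPM.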

How the results depend on the processing

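The female count of genes called was 1 with RLE factors, no filter on low counts, all 17 libraries, DESeq2 on the Tau libraries, voom, equal depth, length and GC offsets and 1 surrogate variable (the last added after seeing the data). It was 0 with edgeR on the 5 female libraries, where Acss2 had -2.85 and an adjusted p of 0.0707, and 4 with DESeq2 on them. Leaving out each library gave 0 to 39 genes called, the highest counts from DESeq2 on 4 female libraries, an alternative added after seeing the data (39 without KO library 325, 35 without WT library 341, 2 without each other one). In edgeR on the 11 libraries it was 0 without KO library 324 or WT library 331. With 1 WT library left, its spread was taken to be that of the remaining groups. Acss2 kept its direction in all of these, at -3.13 to -2.66 with a library left out of the 11. In edgeR on 4 female libraries (added after seeing the data) it was not called at -2.81, -2.77 and -2.93 without 324, 331 and 341. The sex by genotype count was 1 by DESeq2 and 0 otherwise. The male count was 6 by DESeq2, 508 by voom, and 1 to 4 with a library left out (4 without male KO library 711). With length and GC offsets Rbpj and Reln were at -0.09 each. With a library left out of the 11, the lowest and highest log2 fold changes were -0.46 and 0.06 for Rfx3, -0.03 and 0.29 for Rfx5, -0.02 and 0.09 for Rbpj, -0.02 and 0.33 for Reln, -0.03 and 0.31 for Dab1, -0.19 and 0.57 for Lingo1 and -0.24 and 0.05 for Ncam2. On 4 female libraries the sign also turned, in edgeR and DESeq2 respectively, for Rfx3 (0.06 and 0.06 without 324), Rfx5 (-0.02 and -0.02 without 341), Rbpj (-0.01 and -0.01 without 341), Reln (-0.02 and -0.02 without 314), Dab1 (-0.04 and -0.03 without 314), Lingo1 (-0.12 and -0.12 without 314, -0.18 and -0.18 without 331) and Ncam2 (0.05 and 0.05 without 324, 0.04 and 0.05 without 341). The cause of these changes was not tested. Of 52 list medians, 29 moved by over 1 SD of the list score under at least 1 alternative. No paired analysis was possible because the groups share no replicate number. Depth limits Scgb3a1 and Top2a, with 1 and 5 reads in their lowest libraries.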
